A study of Mus musculus with 15 samples.

Results

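Kcnj8 and Abcc9 encode the pore and the regulatory subunit of the vascular ATP-sensitive potassium channel, and their transcripts were followed here over bulk RNA-seq libraries of cultured mouse endothelial cells (ECs) and stromal cells. The members were the 2 of the 44674 genes in the count table that carry these symbols. The pair was chosen by its measured, depth-scaled counts (CPM) in these same libraries, so the levels and fold changes of Kcnj8 and Abcc9 are given as a description, without a test. Both transcripts were abundant in Emcn+ bone marrow ECs of the initial culture, at 154 ± 73.4 CPM for Kcnj8 and 232 ± 50.8 CPM for Abcc9 (mean ± SD, n = 2 libraries), and every other library held at most 3.47 CPM of Kcnj8 and 16.1 CPM of Abcc9. Outside that condition the subunits did not keep a fixed proportion, since Kcnj8 lay between 1 and 6 counts in the 7 passaged libraries while Abcc9 lay between 16 and 178.

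ATP-sensitive potassium channels are octamers in which Kir6 subunits, inwardly rectifying potassium channels, form the pore and sulphonylurea receptors of the ABC transporter family set the response to nucleotides. Kcnj8 encodes Kir6.1 and Abcc9 encodes SUR2, the combination described for vascular smooth muscle and pericytes and also for capillary endothelium. The channel opens when ADP rises relative to ATP or when vasodilators act through cyclic AMP and protein kinase A, and the outflow of potassium then hyperpolarises the membrane. Kcnj11 and Abcc8 encode the other subunits of the class, Kir6.2 and SUR1, best known from the pancreatic beta cell. In the study both Kcnj8 and Abcc9 stand in a list of sinusoidal EC genes, and Kcnj8 also stands in a list of tip cell genes.

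The members are neighbours on mouse chromosome 6 and are transcribed from the same strand. In the GENCODE M21 annotation of GRCm38, Kcnj8 (ENSMUSG00000030247) occupied chr6:142564837-142571614 on the minus strand with 2548 bp of merged exons, and Abcc9 (ENSMUSG00000030249) occupied chr6:142587862-142702315 on the minus strand with 8373 bp of merged exons and 6 annotated transcripts. The gap between the gene bodies was 16247 bp. Counts were summed over transcripts, so the forms of SUR2 were not told apart. The antisense gene 5330439B14Rik lies within the body of Abcc9 and held 2 counts in all 15 libraries together, against 15256 for Abcc9.

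The promoter windows of both genes are shown because the members lie side by side and had their highest level in the same cells. Each sequence is from RefSeq (GRCm38.p6), runs 5′ to 3′ on the minus strand from 250 bases before to 50 bases after the start site, and lies at chr6:142571565-142571864 for Kcnj8 and chr6:142702225-142702524 for Abcc9. Capitals mark GGAA on either strand, the core of sites bound by ETS factors, and the match to the MEF2 consensus.
Kcnj8: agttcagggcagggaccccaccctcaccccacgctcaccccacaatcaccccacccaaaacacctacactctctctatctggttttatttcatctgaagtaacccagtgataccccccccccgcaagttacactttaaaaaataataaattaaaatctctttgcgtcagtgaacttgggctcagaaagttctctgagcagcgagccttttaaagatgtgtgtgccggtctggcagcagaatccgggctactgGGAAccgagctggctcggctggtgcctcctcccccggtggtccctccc
Abcc9: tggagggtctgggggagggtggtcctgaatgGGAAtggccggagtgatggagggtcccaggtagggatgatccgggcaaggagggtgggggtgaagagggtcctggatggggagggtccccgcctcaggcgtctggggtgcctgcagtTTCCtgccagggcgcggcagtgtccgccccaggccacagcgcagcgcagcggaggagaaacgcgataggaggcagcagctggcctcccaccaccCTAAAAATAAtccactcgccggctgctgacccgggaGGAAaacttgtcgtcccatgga

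GGAA occurred 1 time in the Kcnj8 window and 3 times in the Abcc9 window, and 96.0% of the 32851 mouse promoter windows of the same length held it. GATA occurred 2 times for Kcnj8 and 1 time for Abcc9 (57.9% of all windows). CACCC, a sequence bound by Krüppel-like factors, occurred 5 times in each (57.5%), and CANNTG, the E-box, 1 time in each (72.3%). GGGCGG, the GC box, was matched 1 time in the Abcc9 window and not in the Kcnj8 window (35.7%). The MEF2 consensus was matched 1 time in the Abcc9 window, beginning 8 bases before the start site, and not in the Kcnj8 window, and 3.19% of all windows held a match. Both strands were searched for every motif, and 1 of the CACCC matches of Abcc9 shares its last base with the first of the MEF2 match. The GC content was 53.3% for Kcnj8 and 65.7% for Abcc9, beside a median of 52.7% over all windows. These matches describe letters in the windows and are not binding sites.

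Whole bone marrow of Tie2-CreERT2;Rosa26-tdTomato mice aged 4 to 6 months (genotype WT in the labels), in which tamoxifen-induced Cre under the Tie2 promoter switches on tdTomato, was cultured in EC medium, and CD45- tdTomato+ cells with or without surface endomucin (Emcn, a sialomucin) were sorted at the end of the first culture (P0). Emcn- bone marrow ECs (BMECs) were also collected at passages P1 to P4, and Emcn- ECs were sorted from lung cultures in EC medium. Bone marrow mesenchymal stromal cells (BM MSC) were CD45- tdTomato+ cells of Osx-Cre;Rosa26-tdTomato mice, grown in MesenCult, a mesenchymal medium. All cells had therefore been cultured and all carried a Cre and the reporter, and by the growth protocol usually 1 mouse gave 1 dish. P4 had 1 library, so it has no spread between replicates, and the 7 other conditions had 2 libraries each.

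The library totals ran from 9914620 to 39718807 estimated counts, and 3 counts, the limit that a count of 0 allows, corresponded to 0.0755 to 0.303 CPM. The first libraries of P0 Emcn+, P0 Emcn- and lung were of batch d in the labels and the second of batch a, whereas the passaged and BM MSC libraries were of batches b and c. Batch and condition thus cannot be told apart when P0 or lung libraries are set against passaged or BM MSC libraries. In every comparison with BM MSC the culture medium and the mouse line change as well and cannot be told apart from cell type. The endothelial label was checked on 10 genes (Cdh5, Pecam1, Tek, Tie1, Kdr, Cldn5, Erg, Esam, Egfl7 and Vwf). Their summed CPM in replicates 1 and 2 was 12060 and 9835 in P0 Emcn+ and 266 and 70.7 in P0 Emcn-. It was 155 and 698 in lung, 42.3 and 337 in BM MSC, and 44.97 to 69.5 in the passaged libraries. Cdh5, the vascular cadherin, was at 0.0564 to 2.33 CPM in the passaged libraries, so this defining marker of the labelled cell type was nearly absent there, whereas Tek, the gene whose promoter drives the Cre, was at 14.95 to 40.3 CPM. A list of 15 mural cell genes summed to 627 and 473 CPM in P0 Emcn+ replicates 1 and 2, against 1770 and 939 CPM in P0 Emcn-. Mcam alone, which is also a tip cell gene of the study, made up 568 and 340 CPM of the P0 Emcn+ sums. It had 26.6 and 8.17 CPM in P0 Emcn-. In the same order, a list of 10 mesenchymal genes summed to 314 and 513 CPM against 10040 and 7049 CPM.

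Kcnj8, the pore subunit, had 6507 counts (206 CPM) in P0 Emcn+ replicate 1 and 2649 counts (102 CPM) in replicate 2. In P0 Emcn- it had 138 counts (3.47 CPM) and 3 counts (0.303 CPM). In lung it had 17 counts (0.469 CPM) and 0 counts, and in that second library a count of 0 allows up to 0.138 CPM. The P0 Emcn+ libraries were above all others, and lung replicate 2 was the only library without a Kcnj8 count.

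BM MSC held 24 counts of Kcnj8 (0.674 CPM) in replicate 1 and 111 counts (3.38 CPM) in replicate 2. The passaged Emcn- BMECs held 3 and 6 counts at P1, then 2 and 3 (P2), 1 and 4 (P3) and 4 (P4), which corresponds to 0.0282 to 0.215 CPM. The order of the condition means was P0 Emcn+ (154 CPM), BM MSC (2.03 CPM), P0 Emcn- (1.89 CPM), lung (0.235 CPM), P1 (0.152 CPM), P4 (0.110 CPM), P3 (0.0881 CPM) and P2 (0.0789 CPM). Of the neighbours in this order, only P0 Emcn+ and BM MSC were separated in every library. With 2 libraries a group such separation is common, and over the 7 comparisons fitted it held for 40.0% to 79.2% of tested genes. BM MSC and P0 Emcn- overlapped, as did P0 Emcn- and lung and all neighbouring conditions below them, and the single P4 value lay within the ranges of P1 and P3.

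Abcc9, the regulatory subunit, had 8465 counts (268 CPM) and 5084 counts (197 CPM) in P0 Emcn+. P0 Emcn- had 361 counts (9.09 CPM) and 46 counts (4.64 CPM), and lung had 181 counts (5.00 CPM) and 53 counts (2.44 CPM). Here too both P0 Emcn+ libraries were above every other library, and the lung values overlapped those of P0 Emcn-.

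As a ratio, BM MSC differed most between its replicates, with 39 counts of Abcc9 (1.10 CPM) in replicate 1 and 528 counts (16.1 CPM) in replicate 2. P1 had 178 and 149 counts (5.30 and 5.35 CPM), P2 had 38 and 48 counts (1.11 and 1.59 CPM), P3 had 34 and 16 counts (0.959 and 0.592 CPM) and P4 had 36 counts (0.990 CPM). The order of the condition means was P0 Emcn+ (232 CPM), BM MSC (8.58 CPM), P0 Emcn- (6.86 CPM), P1 (5.32 CPM), lung (3.72 CPM), P2 (1.35 CPM), P4 (0.990 CPM) and P3 (0.776 CPM). Among neighbours, P0 Emcn+ and BM MSC did not overlap, nor did P1 and lung, lung and P2, P2 and the single P4 library, or P4 and P3. BM MSC, P0 Emcn- and P1 overlapped as neighbours. The nearest values of P1 and lung were 5.30 and 5.00 CPM, closer than the lung replicates were to each other. These separations are a description, since 2 libraries a group often separate. Over the comparisons fitted, 40.0% to 79.2% of tested genes did not overlap. That share was not counted for P1 and lung, lung and P2, or pairs with P4.

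**Figure D1:**
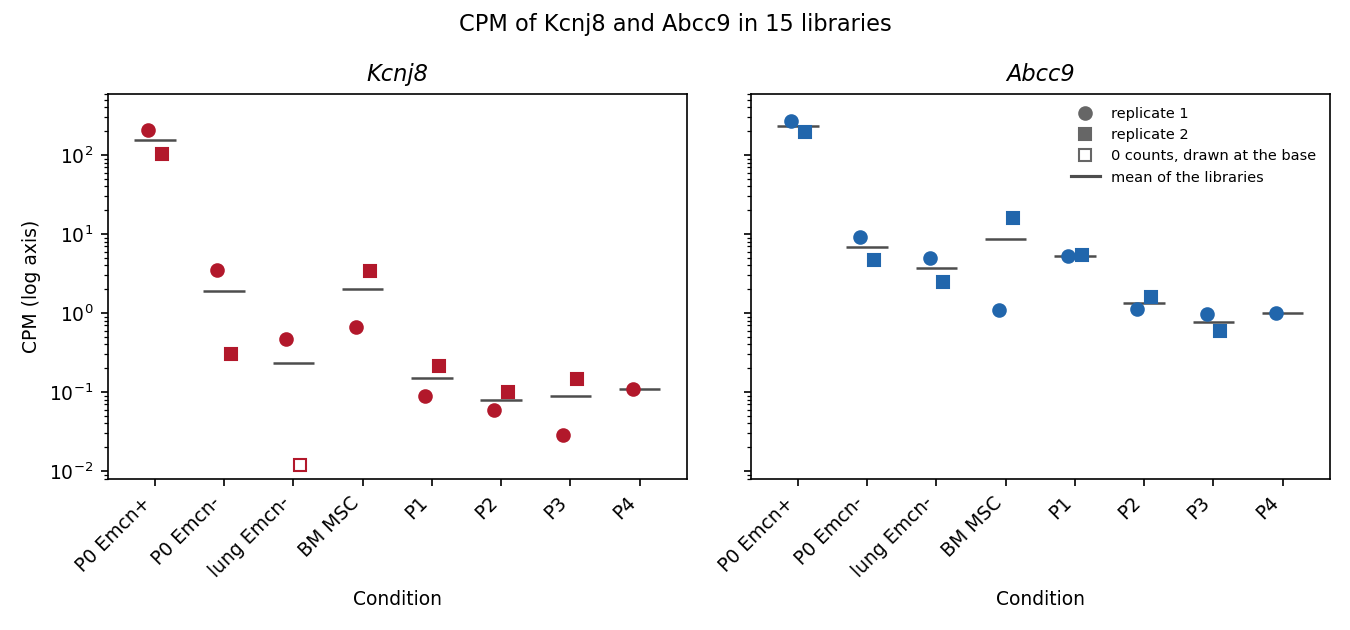
CPM of Kcnj8 (left) and Abcc9 (right) on a log axis in each of the 15 libraries by condition, with circles for replicate 1, squares for replicate 2, a line at the mean and an open symbol at the base of the axis for 0 counts. Both P0 Emcn+ libraries sit at 102 CPM or more for either gene, above all other libraries, and Abcc9 is lower at P2 to P4 than at P1 whereas Kcnj8 is near its detection limit from P1 on.

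The comparison of P0 Emcn+ with P0 Emcn- BMECs asks what separates the ECs sorted by endomucin. The mean CPM in P0 Emcn+ was 81.7-fold that of P0 Emcn- for Kcnj8 and 33.9-fold for Abcc9. The fitted log2 difference was 6.17 (SE 1.06) for Kcnj8 and 5.07 (SE 0.96) for Abcc9. Within batch d the ratio was 59.4 (95% counting interval 50.1 to 70.8) for Kcnj8 and 29.5 (26.6 to 32.9) for Abcc9. Within batch a it was 338 (116 to 1642) for Kcnj8, which rests on 3 counts in the Emcn- library, and 42.4 (31.7 to 57.9) for Abcc9. Neither member overlapped between the groups, as was true of 61.5% of the 19401 tested genes, and 19.2% of tested genes were called in either direction (adjusted p below 0.05, log2 fold change beyond 1.5 either way). The log2 difference of Kcnj8 was 9.03 without P0 Emcn- replicate 1. Emcn itself, the sorting marker, had 631 and 798 CPM in P0 Emcn+ against 12.7 and 2.52 CPM in P0 Emcn-. In bulk samples fewer expressing cells and less RNA per cell cannot be told apart.

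The level in P0 Emcn- as a percentage of the P0 Emcn+ level in the same batch was set beside that of the endothelial genes. In batch d this was 1.69% for Kcnj8 and 3.39% for Abcc9, and the 10 endothelial genes ran from 1.92% (Cdh5) to 72.7% (Vwf) with a median of 2.30%. In batch a it was 0.296% for Kcnj8 and 2.36% for Abcc9, and the endothelial genes ran from 0.0819% to 49.5% with a median of 0.211%. Kcnj8 therefore lay below all 10 endothelial genes in batch d and above their median in batch a, and Abcc9 lay above that median, by more in batch a. The level of endothelial genes moved with both members between these libraries, and its part in the difference was not tested.

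**Figure D2:**
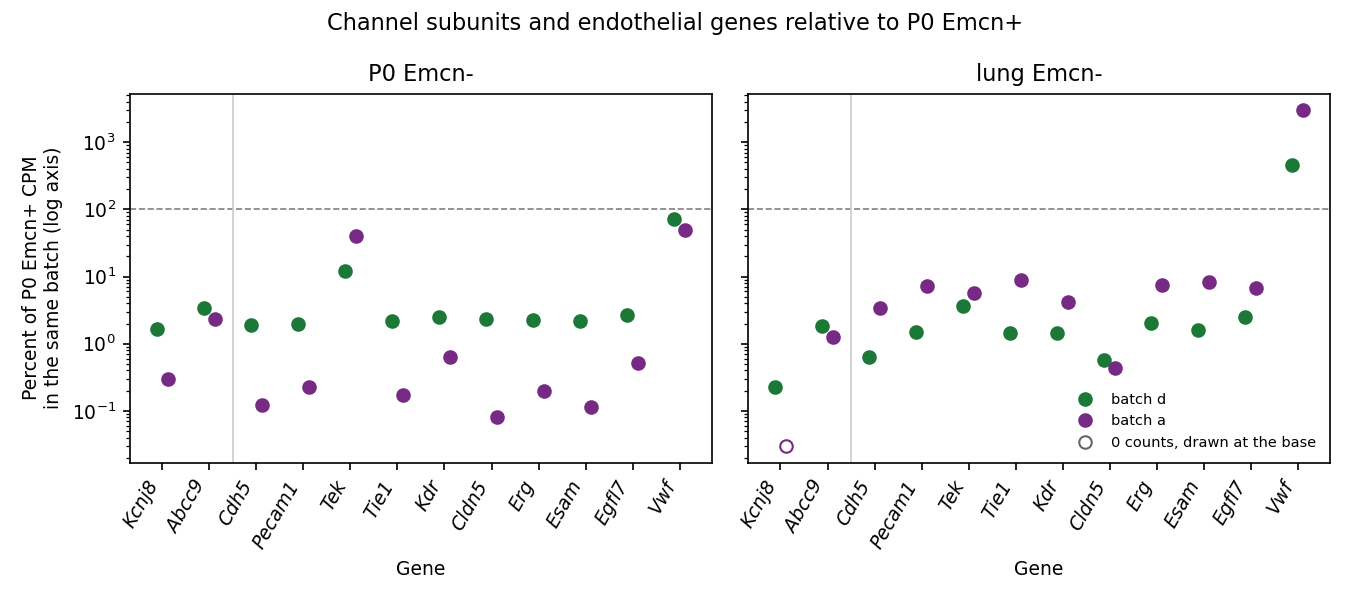
Level of Kcnj8, Abcc9 and 10 endothelial genes in P0 Emcn- (left) and lung Emcn- (right) as a percentage of the P0 Emcn+ CPM of the same batch, on a log axis with a dashed line at 100%. In P0 Emcn- most endothelial genes lie near 2% in batch d and below 1% in batch a, with Tek and Vwf higher, and Kcnj8 lies just below all of them in batch d and above their median in batch a.

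Lung ECs were sorted as Emcn-, so organ and endomucin sort change together in P0 Emcn+ against lung and cannot be told apart. P0 Emcn+ had a 62.5-fold higher mean CPM of Abcc9 and a 657-fold higher mean of Kcnj8. The fitted log2 difference was 5.90 (SE 0.999) for Abcc9 and 9.07 (SE 1.25) for Kcnj8. Within batch d the ratio was 439 (274 to 755) for Kcnj8 and 53.7 (46.3 to 62.5) for Abcc9. Within batch a Kcnj8 was at least 740-fold higher, counted against 3 counts in the lung library (exact 95% lower limit 602), and the Abcc9 ratio was 80.4 (61.4 to 108). No library overlapped for either member, which held for 64.1% of tested genes, and 21.1% of tested genes were called. The lung libraries carried more Emcn than P0 Emcn- (32.6 and 125 CPM), and the endothelial genes in them had medians of 1.55% and 7.02% of the P0 Emcn+ level, beside 0.228% and 0% for Kcnj8 and 1.86% and 1.24% for Abcc9. Lung replicate 2 thus combined the higher endothelial level of the lung pair with the lower Kcnj8 and Abcc9. The mesenchymal list summed to 4941 and 4870 CPM in lung. A list of 10 macrophage genes had 10 higher in P0 Emcn+ (100%, median log2 fold change 4.87). Its sum was 604 and 605 CPM against 23.8 and 21.3 CPM in lung. Of 14 tested mural genes 8 were lower in P0 Emcn+ and 1 was higher (64.3%). The part of these cell types in the difference of either member was not tested.

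Against P0 Emcn-, the lung level of Kcnj8 was lower by a log2 difference of -2.90 (SE 1.15) and that of Abcc9 by -0.83 (SE 0.86). The libraries of Kcnj8 and of Abcc9 overlapped between these groups, whereas 40.0% of tested genes did not overlap, and 3.83% were called. Of the 10 macrophage genes 8 were lower in lung and 0 higher (80%, median log2 fold change -3.7). Their sum was 23.8 and 21.3 CPM in lung against 202 and 244 CPM in P0 Emcn-. Of 14 tested mural genes 3 were lower and 1 higher (28.6%). The 3 lower genes, Vtn, Cspg4 and Notch3, all lost their calls with only the compared groups and without lung replicate 2. The part of these cell types in the lower level of either member was not tested. Within batch the ratio of P0 Emcn- to lung was 1.82 (1.52 to 2.19) in batch d and 1.90 (1.25 to 2.87) in batch a for Abcc9. For Kcnj8 it was 7.40 (4.46 to 13.1) in batch d, and in batch a 3 counts stood against 0. Without P0 Emcn- replicate 1 the log2 difference of Kcnj8 was -0.04, and without lung replicate 1, which leaves 0 lung counts, it was -8.96, so its size was not settled by these libraries.

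BM MSC, the stromal reference, had mean levels close to those of P0 Emcn- for both members. P0 Emcn+ was 76.2-fold above BM MSC in mean CPM for Kcnj8 and 27.1-fold for Abcc9. The log2 differences were 6.22 (SE 1.05) and 4.73 (SE 0.938) with no overlap, as for 79.2% of tested genes (31.3% called). Leaving out 1 library at a time gave 5.48 to 7.76 for Kcnj8 and 3.82 to 7.65 for Abcc9. All 10 endothelial and all 10 macrophage genes were called higher in P0 Emcn+ (100% each, medians 6.08 and 5.03). Of 14 tested mural genes 13 were lower and 1 higher (100%). Of 10 mesenchymal genes 8 were lower and 0 higher (80%). Their part in the difference of either member was not tested. BM MSC against P0 Emcn- gave a log2 difference of -0.05 (SE 0.92) for Kcnj8 and 0.34 (SE 0.837) for Abcc9, with overlapping libraries, while 67.5% of tested genes did not overlap and 18.7% were called. The sign of neither was stable: Kcnj8 gave 0.01 under RLE scaling, 2.79 without P0 Emcn- replicate 1 and 0.69 without BM MSC replicate 1, and Abcc9 gave -0.05 without P0 Emcn- replicate 2 and -2.58 without BM MSC replicate 2. The BM MSC replicates are of the same batch, and replicate 2 exceeded replicate 1 by 14.7-fold (10.6 to 20.9) for Abcc9 and 5.02-fold (3.20 to 8.16) for Kcnj8. The same library had the higher endothelial sum (337 against 42.3 CPM) and Cdh5 at 156 against 7.86 CPM. Of the 15 mural genes it had the higher CPM for 10 and the lower for 4, with Higd1b at 0 in both, and the mural sum was 2450 against 1796 CPM. Rgs5, a pericyte gene, was at 38.1 against 1.32 CPM, while Cspg4, another, was at 68.9 against 165 CPM. The part of either cell type in the higher channel level of that library was not tested.

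The passaged cells show what became of the pair as Emcn- BMECs were kept in culture. P1 against P0 Emcn- gave a log2 difference of -3.70 (SE 1.26) for Kcnj8 and -0.25 (SE 0.847) for Abcc9. Kcnj8 did not overlap between these groups, as did not 61.4% of tested genes, Abcc9 overlapped, and 8.84% of tested genes were called. Without P0 Emcn- replicate 1 the log2 difference of Kcnj8 was -0.87 and that of Abcc9 was 0.35. Of the 10 endothelial genes 1 was called, a share of 10% beside that 8.84%, and the median log2 fold change was -2.62. The called gene, Cdh5, was at 1.13 and 2.33 CPM in P1 against 119.5 and 6.35 CPM, and its call was lost with the replicate block, with only the compared groups and without P0 Emcn- replicate 1 or either P1 replicate, while Tek had means of 35.2 against 34.9 CPM. Of 14 tested mural genes 5 were lower in P1 and 0 higher (35.7%, median log2 fold change -1.28). Of 10 mesenchymal genes 4 were lower and 0 higher (40%, median -0.88). The mural calls of Ndufa4l2, Mcam, Tagln and Acta2 were lost without P0 Emcn- replicate 1 and also without either P1 replicate. The mesenchymal call of Ibsp was lost with only the compared groups and without either P1 replicate. That of Col1a1 was lost without P1 replicate 1, while that of Alpl was kept. The part of the endothelial, mural or mesenchymal genes in the difference of Kcnj8 was not tested. These groups share no batch.

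Between passages the batch is shared, and here Abcc9 had the larger difference. P3 against P1 gave a log2 difference of -2.71 (SE 0.969) for Abcc9 and -0.80 (SE 1.93) for Kcnj8. The ratio of P1 to P3 for Abcc9 was 5.52 (3.81 to 8.22) in batch b and 9.03 (5.38 to 16.2) in batch c, and that of P1 to P2 was 4.78 (3.35 to 6.97) and 3.36 (2.41 to 4.75). In batch b P1 was 5.35-fold (3.72 to 7.88) above P4. For Kcnj8 the P1 to P3 ratio was 3.16 (0.254 to 166) and 1.45 (0.345 to 7.00), so a difference was not detectable at this depth. Abcc9 did not overlap between P1 and P3, as did not 52.4% of tested genes, and 0.222% were called. The endothelial sum in replicates 1 and 2 was 69.5 and 60.2 CPM at P1 against 60.4 and 44.97 CPM in P3. In the same order, the macrophage sum was 72.3 and 232 CPM at P1 and 17.8 and 14.5 CPM at P3. Macrophage genes thus moved in the same direction as Abcc9, and their part in it was not tested.

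Whether the subunits moved together was read from the sign in each comparison and from their proportion. In P0 Emcn+ against each of the 3 other unpassaged conditions both members were higher, and these comparisons share the P0 Emcn+ libraries. Both had a negative log2 difference in lung and in P1 against P0 Emcn- and in P3 against P1. Of these, the sign of Abcc9 in P1 and of Kcnj8 in P3 against P1 changed with 1 library left out. In BM MSC against P0 Emcn- the signs of the members differed, and neither was stable. Over the 8 condition means of log2(CPM + 0.5) Pearson's r was 0.96 and Spearman's rho 0.81, and without P0 Emcn+ Pearson's r was 0.68 over 7 means. Over 15 libraries r was 0.94, over the 13 libraries without P0 Emcn+ it was 0.71 with a rho of 0.49, and over the 7 passaged libraries it was 0.42. The points share libraries, batches and, for low Kcnj8, counts close to 0, so these values are a description. Most of the joint variation lay between P0 Emcn+ and the rest.

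**Figure D3:**
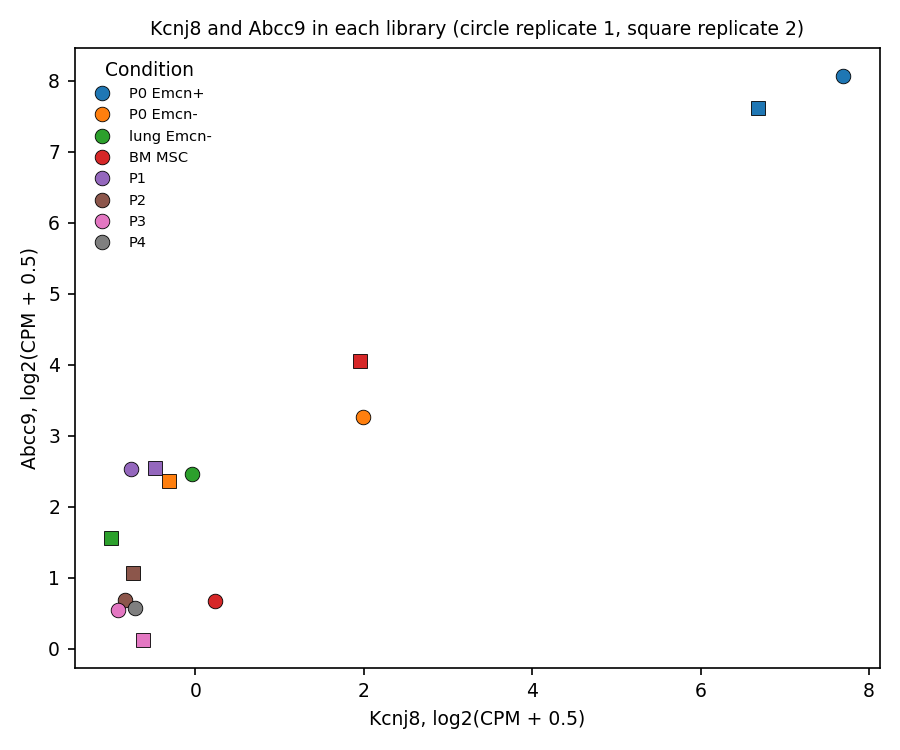
Abcc9 against Kcnj8 in each of the 15 libraries, both as log2(CPM + 0.5), with colours for conditions, circles for replicate 1 and squares for replicate 2. The P0 Emcn+ libraries stand alone at the upper right, BM MSC replicate 2 and P0 Emcn- replicate 1 come next, and the passaged libraries spread along Abcc9 with little change in Kcnj8.

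Levels of different genes were compared per kilobase of exon. In P0 Emcn+ the mean level was 60.6 CPM per kb for Kcnj8 and 27.8 CPM per kb for Abcc9, so the pore transcript was the more abundant. The ratio of Abcc9 to Kcnj8 per kb was 0.396 (95% counting interval 0.383 to 0.409) and 0.584 (0.557 to 0.612) in the P0 Emcn+ libraries. It was 0.796 (0.653 to 0.976) and 4.67 (1.5 to 23.5) in P0 Emcn-, and 0.495 (0.290 to 0.860) and 1.45 (1.18 to 1.79) in BM MSC. Lung had 3.24 (1.97 to 5.69) in replicate 1 and at least 5.38 in replicate 2, counted against 3 counts of Kcnj8 (exact 95% lower limit 4.22). The P1 libraries had ratios of 18.1 (6.08 to 88.4) and 7.56 (3.39 to 20.9), and the P2 libraries 5.78 (1.49 to 49.5) and 4.87 (1.57 to 24.4). The ratio was 10.4 (1.74 to 421) and 1.22 (0.393 to 5.00) in the P3 libraries and 2.74 (0.982 to 10.6) in P4. In the lung, P1 and P2 libraries, P3 replicate 1, P0 Emcn- replicate 2 and BM MSC replicate 2 the regulatory subunit was thus the more abundant transcript per kb beyond counting error, whereas in P3 replicate 2 and P4, with 4 counts of Kcnj8 each, a difference was not detectable at this depth. The other replicates of P0 Emcn- and BM MSC had the pore transcript higher per kb, as did both P0 Emcn+ libraries.

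No transcript of the other channel class stood in for the pair. Kcnj11 (Kir6.2) had 0 counts in all 15 libraries. Abcc8 (SUR1) had 1 count in P0 Emcn- replicate 2, 1 count in P4 and 0 counts elsewhere. Neither passed the filter on low counts.

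The remaining genes of both families were tested by quasi-likelihood in edgeR, with p adjusted by Benjamini-Hochberg over all 19401 genes. Of 14 other inward rectifier genes 7 were tested for P0 Emcn+ against P0 Emcn-, of which 1 rose, 1 fell and 5 were not called, a share of 28.6% beside 19.2% over all tested genes (median log2 fold change 1.37, beside -0.06). Kcnj15, encoding Kir4.2, rose by a log2 fold change of 3.84 (SE 0.579, adjusted p = 0.000627), from 1.26 and 0.504 CPM to 15.4 and 11.8 CPM. Kcnj4, encoding Kir2.3, fell by 3.81 on the log2 scale (adjusted p = 0.00797), from 1.59 and 0.303 CPM to 0.0951 and 0.0387 CPM. Kcnj2, encoding Kir2.1, the endothelial inward rectifier best known from capillaries, was not called (log2 fold change 1.37, SE 0.71, adjusted p = 0.171). Kcnj15 also differed between BM MSC and P0 Emcn- (log2 fold change 4.04, adjusted p = 0.000753), and its BM MSC libraries (19.0 and 10.8 CPM) overlapped those of P0 Emcn+.

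Of 10 other ABC subfamily C genes 7 were tested, of which 2 rose and 5 were not called in P0 Emcn+ against P0 Emcn- (28.6%, beside 19.2% over all tested genes). Cftr, the cystic fibrosis chloride channel, rose by a log2 fold change of 6.32 (SE 1.2, adjusted p = 0.00249) and had 61.8 and 40.1 CPM in P0 Emcn+ against 0.781 and 0.403 CPM. Abcc3, an organic anion exporter, rose by 2.73 (SE 0.408, adjusted p = 0.000595). The exporters Abcc1, Abcc4 and Abcc5 were at 18.8 CPM or more in every library and were not called there, with log2 fold changes of -0.66, -0.04 and -0.96.

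Among 25 tested genes of 29 other potassium channel subunits described in the vessel wall, 7 rose and 7 fell in P0 Emcn+ against P0 Emcn-, a share of 56.0% beside 19.2% over all tested genes, with a median log2 fold change of 0.24. The voltage-gated pore genes Kcna5 (log2 fold change 7.49, adjusted p = 0.00401), Kcna6 (5.49, adjusted p = 0.000211) and Kcnq1 (5.26, adjusted p = 0.00153) rose, whereas the voltage-gated pore genes Kcna1 (-3.23, adjusted p = 0.00403) and Kcna2 (-3.29, adjusted p = 0.0215) fell. Both that fell were low throughout. Kcna1 had 0.0317 and 0.116 CPM in P0 Emcn+ against 0.932 and 0.403 CPM in P0 Emcn-. Kcna2 had 0.127 and 0 CPM against 0.403 and 1.21 CPM. Kcne3, an auxiliary subunit that partners Kcnq1 and a member of the tip cell list of the study, had 149 and 40.7 CPM in P0 Emcn+ against 2.64 and 0 CPM (log2 fold change 5.92, adjusted p = 0.0106 by edgeR, not called by DESeq2 or without P0 Emcn+ replicate 1). Kcnma1, the pore of the large-conductance calcium-activated channel, rose by 5.21 (adjusted p = 0.000499), with 39.9 and 11.2 CPM against 0.705 and 0.706 CPM. In the other direction, the auxiliary genes Kcne4 (-5.26, adjusted p = 0.000466) and Kcnab1 (-5.23, adjusted p = 0.000308) and the intermediate-conductance channel Kcnn4 (-3.59, adjusted p = 0.0347) fell. Kcnn4 was low too, with 0.0634 and 0.0773 CPM in P0 Emcn+ against 1.31 and 0.303 CPM in P0 Emcn-. In BM MSC against P0 Emcn- 6 of the 25 rose and 3 fell (36%, beside 18.7% over all tested genes), led by Kcnq5 and Kcnk2.

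Receptors and kinases that act on the vascular channel were split in direction. All 27 genes of this list were tested, and 6 rose and 9 fell in P0 Emcn+ against P0 Emcn- (55.6%, beside 19.2% over all tested genes, median log2 fold change 0.06). Adora2a, a Gs-coupled adenosine receptor, rose by 5.45 (SE 0.917, adjusted p = 0.00122), and Ramp3, a partner of the Calcrl receptor for adrenomedullin and related peptides, rose by 3.97 (adjusted p = 0.000382), as did Calcrl by 2.33 (adjusted p = 0.00358). Nos3, endothelial nitric oxide synthase, had 181 and 149 CPM in P0 Emcn+ against 6.55 and 0.605 CPM (log2 fold change 5.41, adjusted p = 0.00353). Agtr1a, the angiotensin receptor whose signal closes the channel, fell by 7.80 on the log2 scale (adjusted p = 0.00016). Ptgir, the prostacyclin receptor, which signals to open it, also fell, by 6.12 on the log2 scale (adjusted p = 6.29e-05). The endothelin receptors parted, with Ednrb higher (3.802, adjusted p = 0.00601) and Ednra lower (-4.84, adjusted p = 1.45e-05).

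The genes downstream of membrane potential went mainly the other way from the pair. Of 11 voltage-gated calcium channel and connexin genes 1 rose and 6 fell (63.6%, beside 19.2% over all tested genes, median log2 fold change -2.55). Cacna1c, the L-type pore that opens on depolarisation, fell by 5.11 on the log2 scale (SE 0.609, adjusted p = 0.000142), and the T-type pore Cacna1g had 0.0317 and 0.0387 CPM in P0 Emcn+ against 5.31 and 5.85 CPM (log2 fold change -7.12, adjusted p = 2.05e-06). Gja5, the connexin of arterial endothelial gap junctions, rose by 4.80 (adjusted p = 0.00219). In P3 against P1 Cacna1g was the single gene called in the channel and pathway lists (log2 fold change 2.65, adjusted p = 0.0122), beside 0.222% of all tested genes, a call lost without P1 replicate 2 or P3 replicate 1.

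The same lists were counted in the comparisons that share the P0 Emcn+ or the P0 Emcn- libraries. In P0 Emcn+ against lung, where 21.1% of all tested genes were called, 8 of the 25 other potassium channel genes rose and 6 fell (56.0%), 6 of the 27 upstream genes rose and 9 fell (55.6%), and 1 of the 11 downstream genes rose and 6 fell (63.6%). Of the 7 tested genes of each family, 2 inward rectifier genes rose and 2 fell, and 2 ABC subfamily C genes rose. Against BM MSC, beside 31.3% of all tested genes, the counts were 9 and 11 (80.0%), 9 and 9 (66.7%), and 2 and 6 (72.7%), with 2 inward rectifier genes lower, 2 ABC subfamily C genes higher and 1 lower. In P1 against P0 Emcn-, beside 8.84% of all tested genes, 2 of the 25 other potassium channel genes rose and 1 fell (12%), 2 upstream genes rose and 2 fell (14.8%), 2 downstream genes rose and 2 fell (36.4%), and 1 inward rectifier gene rose. Of the potassium channel genes, Kcnab1, an auxiliary subunit, rose by a log2 fold change of 2.28 (edgeR adjusted p = 0.025) and reached 169 and 145 CPM in P1. Its call was lost with only the compared groups, without P0 Emcn- replicate 1 or without either P1 replicate.

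**Figure D4:**
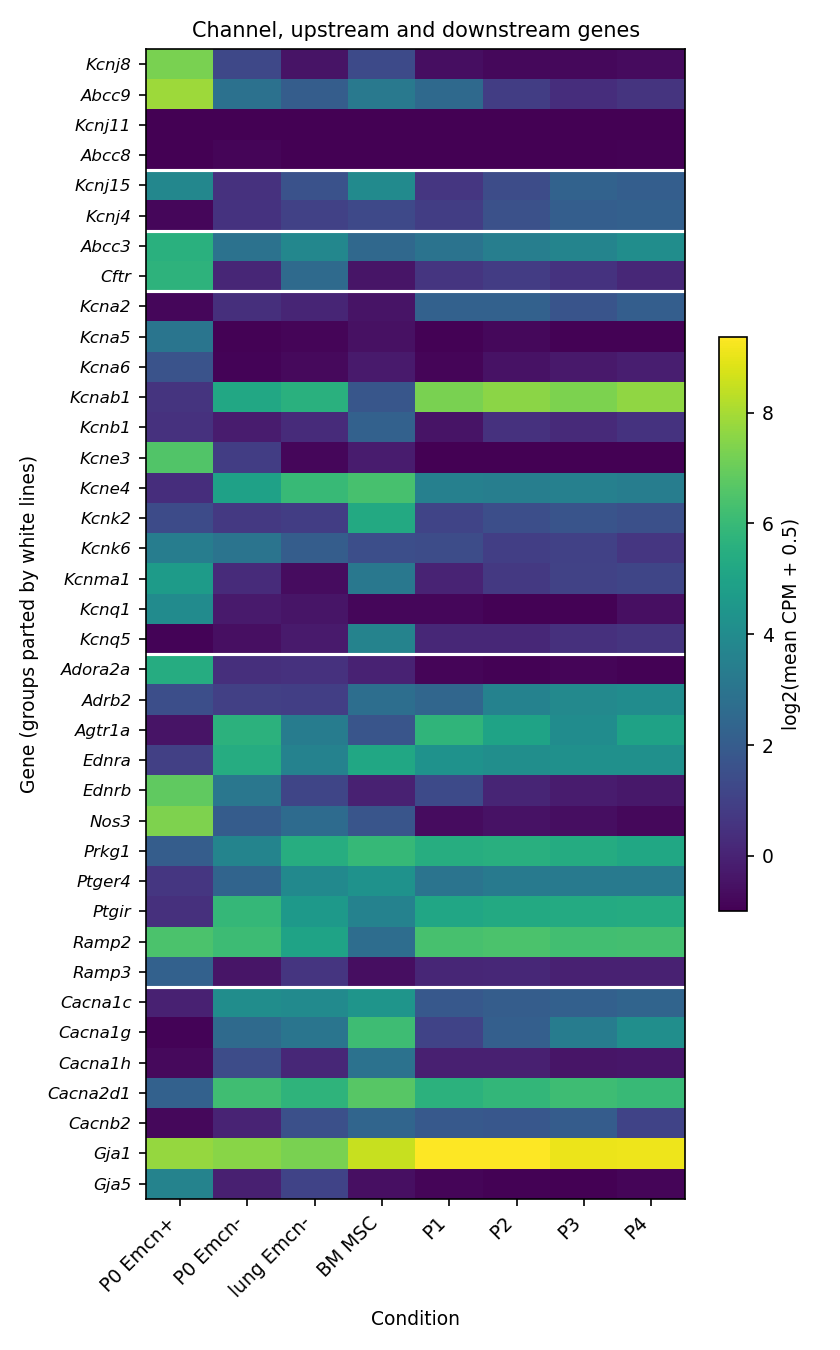
Mean expression by condition, as log2(mean CPM + 0.5), of Kcnj8, Abcc9, Kcnj11 and Abcc8 (top block) and of the named genes of the inward rectifier, ABC subfamily C, other potassium channel, upstream and downstream lists (lower blocks, parted by white lines). Kcna5, Kcne3, Kcnq1, Adora2a, Nos3 and Gja5 share with the pair their highest mean in P0 Emcn+, and Kcnj11 and Abcc8 are at the floor throughout.

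The lists that hold the members were also counted without them. Of the 18 other genes of the sinusoidal list 15 rose and none fell in P0 Emcn+ against P0 Emcn- (83.3%, beside 19.2% over all tested genes as for the other lists here, median log2 fold change 5.05), led by Gpm6a (7.29, adjusted p = 7.45e-05), Selp (7.13, adjusted p = 0.00155) and Stab2, a scavenger receptor of sinusoids (6.82, adjusted p = 7.67e-05). This list holds Emcn, the sorting marker. The study compiled both this and the tip cell list from the literature and showed them on these libraries, so their counts are not independent evidence of direction. Of the 26 other genes of the tip cell list 25 rose and none fell (96.2%, median 5.20), and of the 10 endothelial genes 9 rose and none fell (90.0%, median 6.05). The mural list went the other way, with 9 of 14 tested genes lower and 1 higher (71.4%): Pdgfrb, the defining pericyte receptor, fell by 5.92 on the log2 scale (adjusted p = 9.1e-06) and Vtn by 7.60 on the log2 scale (adjusted p = 0.00132), and the exception, Mcam, is also a tip cell gene. Rgs5 was at 0.222 and 0.0387 CPM in P0 Emcn+. The libraries with the highest level of Kcnj8 and Abcc9 were therefore those with the lowest Pdgfrb (16.2 and 9.82 CPM) and the highest endothelial sum. Of 10 macrophage genes, 3 rose in P0 Emcn+ and 7 were not called (30.0%, beside 19.2% over all tested genes), with a summed CPM of 604 and 605 against 202 and 244.

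The genes most like each member were ranked by Pearson's r of log2(CPM + 0.5) over the 8 condition means among the 12776 tested genes with at least 5 CPM in at least 1 condition mean. For Kcnj8 they were Prdm1 (0.998), Plekha1 (0.997), Nr5a2 (0.996), Clca2 (0.996) and Ccdc43 (0.996), and Abcc9 ranked 347 with r = 0.957. For Abcc9 they were Wdr37 (0.992), Smad5 (0.992), Pold3 (0.991), Ppp6r3 (0.990) and Arhgap25 (0.990), and Kcnj8 ranked 169. Over 15 libraries Abcc9 ranked 170 for Kcnj8 and Kcnj8 ranked 37 for Abcc9. Pearson's r does not weigh the size of the change, so that Wdr37 ranked first with means of only 27.6 to 52.3 CPM. Of the genes most like Kcnj8, Prdm1, Nr5a2 and Clca2 shared its wide range, with 27.6, 37.2 and 23.1 CPM in P0 Emcn+ and at most 1.00 CPM in any other mean.

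Within 250 kb of the Kcnj8 to Abcc9 span, 8 other protein-coding genes were tested for P0 Emcn+ against P0 Emcn-, of which 1 was called, beside 19.2% of all tested genes. Ldhb, the lactate dehydrogenase B subunit on the Kcnj8 side, differed by a log2 fold change of -1.03 (SE 0.261, adjusted p = 0.012), and Cmas, a sialic acid activating enzyme on the Abcc9 side, by 1.08 (SE 0.123, adjusted p = 0.00011), both under the fold limit. St8sia1, a sialyltransferase, was called higher (4.21, SE 1.3, adjusted p = 0.0305) at 0.845 against 0.063 mean CPM, a call lost without P0 Emcn+ replicate 1 or without either P0 Emcn- replicate. Pyroxd1 (0.13), Recql (-0.41), Golt1b (-0.32) and Spx (-0.89) were not called. Slco1a5 (fitted log2 fold change -4.13, SE 1.66, adjusted p = 0.0936, no bound) had 0 counts in P0 Emcn+ and a mean of 0.0504 CPM in P0 Emcn-, and Gys2 and Sult6b2 had too few counts to be tested.

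**Figure D5:**
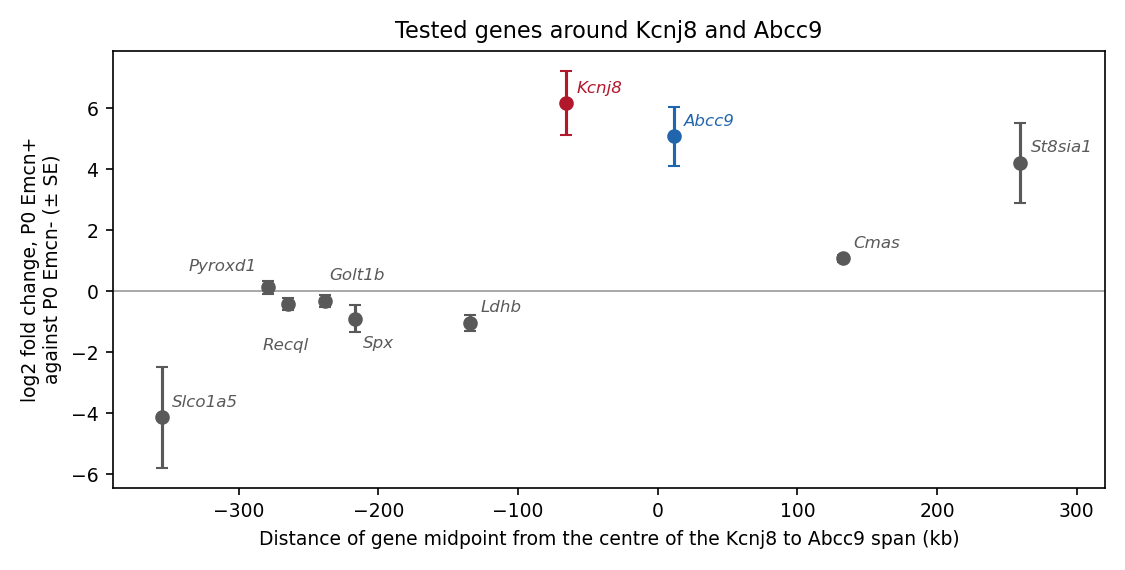
Log2 fold change of P0 Emcn+ against P0 Emcn- (± SE of the edgeR fit) for the tested protein-coding genes around the pair, against the distance of the gene midpoint from the centre of the Kcnj8 to Abcc9 span in kb. Kcnj8 (6.17) and Abcc9 (5.07) stand above Ldhb (-1.03) and Cmas (1.08), the nearest tested genes on either side, and St8sia1 rests on few counts.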

How the data were processed

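RNA of sorted cultured mouse cells was sequenced in 15 libraries of 8 conditions, with groups, replicate numbers and batches from the labels. With the nf-core RNASeq pipeline the authors trimmed reads, ran STAR against GRCm38 and quantified transcripts with Salmon, and they deposited estimated counts for 44674 genes as whole numbers without normalization. How they were rounded is not given in the sources used here. Salmon shares ambiguous reads between transcripts. Blank symbols (8 genes) and duplicates (21) included no gene named here. Coordinates and exon lengths are from GENCODE M21 (GRCm38), and promoters from RefSeq (GRCm38.p6). Both members matched.

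CPM were computed on the library total. Fold changes came from edgeR 4.0.16 in R 4.3.3: TMM factors, filterByExpr (minimum count 10, minimum total 15; 19401 genes), a quasi-likelihood fit of all 15 libraries with 1 coefficient per condition (7 residual degrees of freedom), and Benjamini-Hochberg adjustment. A call needed an adjusted p below 0.05 and a log2 fold change beyond 1.5 either way. Kcnj8 and Abcc9 have estimates without p. On simulated counts with 200 changed genes, 196 were recovered for P0 Emcn+ against P0 Emcn- (18306 genes) and 199 for P1 against P0 Emcn- (18163 genes). The simulation gave every gene the same fixed spread and put a large change only in genes above 1 CPM. It checks that the fit runs as intended and does not measure the power in these libraries. The members, lists and tests were chosen with earlier results of these data known. Named genes are the members, Kcnj11, Abcc8 and Emcn, up to 4 called genes per list and comparison with the largest fold change and at least 1 CPM in each library of the higher group, the 5 genes most like each member, and protein-coding genes within 250 kb. Other list genes named (Kcnj2, Kcnj4 in P0 Emcn-, Abcc1, Abcc4, Abcc5, Kcna1, Kcna2, Tek, Kcnma1, Kcne4, Kcnab1, Kcnn4, Ramp3, Calcrl, Ednrb, Ednra, Cdh5, Mcam and Rgs5) were picked after their values were seen, for their roles.

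Exact 95% counting intervals and the limit of 3 counts cover counting error only. Replicates differed beyond counting noise in all 7 replicated conditions (chi-square per degree of freedom 42.5 to 141). By the labels, same-numbered libraries of P0 and lung share a batch, as do those of the passages, and deviations from the group means correlated by 0.139 to 0.209 and 0.354 to 0.451. Alternatives were RLE factors, DESeq2 1.42.0, no filter, a replicate block of batch terms, only the compared groups, and omission of each library singly. The labels do not tie each library to a mouse, while the study's reporting statement describes its RNA-seq replicates as independent biological samples, with cultures from separate animals. The p-values measure the spread between these libraries.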

Additional observations from a re-analysis of the deposited data

How the results depend on the processing

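For Kcnj8 in BM MSC against P0 Emcn- the log2 difference of -0.05 changed sign, to 0.01 with RLE factors, 0.21 with DESeq2 and 0.10 with only the compared groups. For the other log2 differences of Kcnj8 and Abcc9, RLE factors, DESeq2, no filter and only the compared groups gave values within the spread between replicates, except that Kcnj8 could not be fitted with only the compared groups in P1 against P0 Emcn- and in P3 against P1, where it did not pass the filter. With the replicate block the log2 difference of P0 Emcn+ against P0 Emcn- was 6.62 for Kcnj8 and 5.17 for Abcc9, none moved beyond that spread, and the calls of Gja5 and Kcne3 against BM MSC and of Cdh5 in P1 against P0 Emcn- were lost. The correlation of the members was 0.96 over condition means, 0.81 by Spearman's rho and 0.68 without P0 Emcn+. The mean of Abcc9 at P1 was 5.48 CPM with TMM scaling, against 5.32. Leaving out each library in turn gave, for Kcnj8, 5.50 to 9.03 (P0 Emcn+ against P0 Emcn-), 8.31 to 15.11 (against lung, the highest value without lung replicate 1, which leaves 0 counts and so gives no bound), 5.48 to 7.76 (against BM MSC), -8.96 to -0.04 (lung against P0 Emcn-), -1.59 to 2.79 (BM MSC), -4.39 to -0.87 (P1) and -2.17 to 0.01 (P3 against P1). For Abcc9 the ranges were 4.71 to 5.70, 5.50 to 6.57, 3.82 to 7.65, -1.49 to -0.21, -2.58 to 1.25, -0.64 to 0.35 and -3.16 to -2.40. Among the neighbours, Pyroxd1 (-0.12 to 0.43) and Slco1a5 (-4.64 to 0.00, the latter without any count left) changed sign or reached 0 without P0 Emcn- replicate 1. The calls were tallied for the neighbours and the list genes named by largest fold change, not for genes only picked after their values were seen. Over these, leaving out 1 library lost the call in 115 cases and kept the side of the threshold in 635. DESeq2 lost 2, the replicate block 3 and only the compared groups, with fewer libraries, 32. In P3 against P1, with fewer named calls, each was lost without P1 replicate 2 and also without P3 replicate 1. By number of cases, lost calls were most frequent in P1 and in lung against P0 Emcn-. The counts of channel and pathway genes called changed by over 1.5 times under some settings in these comparisons and in P3 against P1: with only the compared groups to 0 from 4 in lung, to 5 from 12 in P1 and to 3 from 1 in P3 against P1, where DESeq2 called 4 and the replicate block 2. Leaving out 1 library gave 2 to 17 for P1 (2 without P0 Emcn- replicate 1 or P1 replicate 1, 3 without P1 replicate 2), 0 to 4 for lung (1 without lung replicate 1, 0 without lung replicate 2) and 0 to 1 for P3 against P1 (0 without P1 replicate 2 or P3 replicate 1). The cause was not tested. Kcnj8 at P1 to P4 rests on 1 to 6 counts a library, which sets the limit there.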

Other observations

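Some genes with no direct tie to the channel followed Kcnj8 closely over the 15 libraries. Gimap4 (Pearson's r = 0.991), F2rl3, the thrombin-activated receptor PAR4 (0.989), Prdm1 (0.988), Csf2rb (0.987) and Nr5a2 (0.987) were the 5 most like it, with means in P0 Emcn+ of 103, 59.6, 27.6, 103 and 37.2 CPM. For Abcc9 they were Lcp1 (0.970), Arhgap25 (0.965), Csf2rb2 (0.964), Ppp6r3 (0.960) and Dcst1 (0.959). Lcp1, Arhgap25 and Csf2rb2 are best known from blood cells, and Lcp1 had means of 474 CPM in P0 Emcn+, 21.6 CPM in P0 Emcn- and 3.29 CPM in lung. These genes were ranked on the same libraries, and the ranking is a description.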
